A study of Mus musculus with 6 samples.

Results

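DNA damage response genes were examined as a group of 33 genes, out of 21887 protein-coding genes of the reference, for peaks of hnRNP UL1 on chromatin in mouse macrophages at rest and under lipopolysaccharide (LPS). The 33 were taken by name and ordered here by the step they serve: 14 sense breaks or mark them, 3 act as checkpoint effectors, 4 resect DNA ends, 5 carry out homologous recombination, and 7 act in end joining or other strand-break repair. A gene was credited with every peak whose row named it as nearest, or whose position fell in it or no more than 5 kb to either side. The cells were RAW 264.7, an established mouse macrophage line. Untreated cells (0 h) and cells given 100 ng/ml LPS for 4 h or 10 h were precipitated with an antibody against hnRNP UL1, with 1 library per time and 1 input sample beside each. All groups share the cell line and the antibody, and the labels name no genetic change. The input samples were not analysed here.

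hnRNP UL1 is a nuclear RNA-binding protein that also acts at DNA double-strand breaks, where it is known to be recruited by the MRE11-RAD50-NBN complex and to promote end resection. In that pathway the complex finds the broken end, and the ATM and ATR kinases signal from it. CtIP, EXO1, BLM and DNA2 take part in cutting back 1 strand, so that BRCA1, BRCA2, PALB2 and RAD52 can direct recombination. Ku and DNA-PK instead hold ends that are to be joined without resection. The data here are peaks on the genes of these proteins and do not measure the repair of breaks or the expression of the genes.

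The tables give each peak as a point 2 bp wide with its nearest gene, but neither height, q-value nor read depth, so only presence can be read. The 0 h table holds 8425 peaks. The 4 h and 10 h tables, with 9046 and 1153 complete rows, are ordered by Ensembl gene ID and end early. They were compared with 0 h only over IDs below their last one, ENSMUSG00000027620 for 4 h (the longer range) and ENSMUSG00000022416 for 10 h (the common range). With 1 library per time there is no replicate error and no test between times, and intervals (95%, exact Clopper-Pearson for shares) cover counting error only. Of the macrophage markers, 5 of 8 had a 0 h peak (Spi1, Csf1r, Cd68, Lyz2 and Fcgr1, but not Adgre1, Itgam or Mertk). So did 1 of 6 T and B cell markers, 1 of 4 fibroblast markers and 21.0% of all protein-coding genes. The lists are short, and differences between them were not tested.

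Before LPS, 9 of the 33 genes held a peak, and 7 of these 9 serve break sensing and signalling. They were Mre11a, Rad50, Atr, Mdc1, Rnf168, Rpa1 and Parp1, together with the checkpoint kinase gene Chek2 and the Ku70 gene Xrcc6. The sensing group is also the largest of the 5, with 14 genes. None of the 4 genes counted under resection and none of the 5 recombination genes held one. Mre11a, the nuclease gene, and Rad50 were counted under sensing only, so the resection count leaves them out and depends on this grouping. In all there were 11 peaks, at most 2 per gene, with a median of 0 over the members and also 0 over all protein-coding genes. The 9 genes are 27.3% of the members (interval 13.3 to 45.5%). By the same counting 21.0% of all protein-coding genes held a 0 h peak, which lies inside that interval, so the members' share is near the background.

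**Figure D1:**
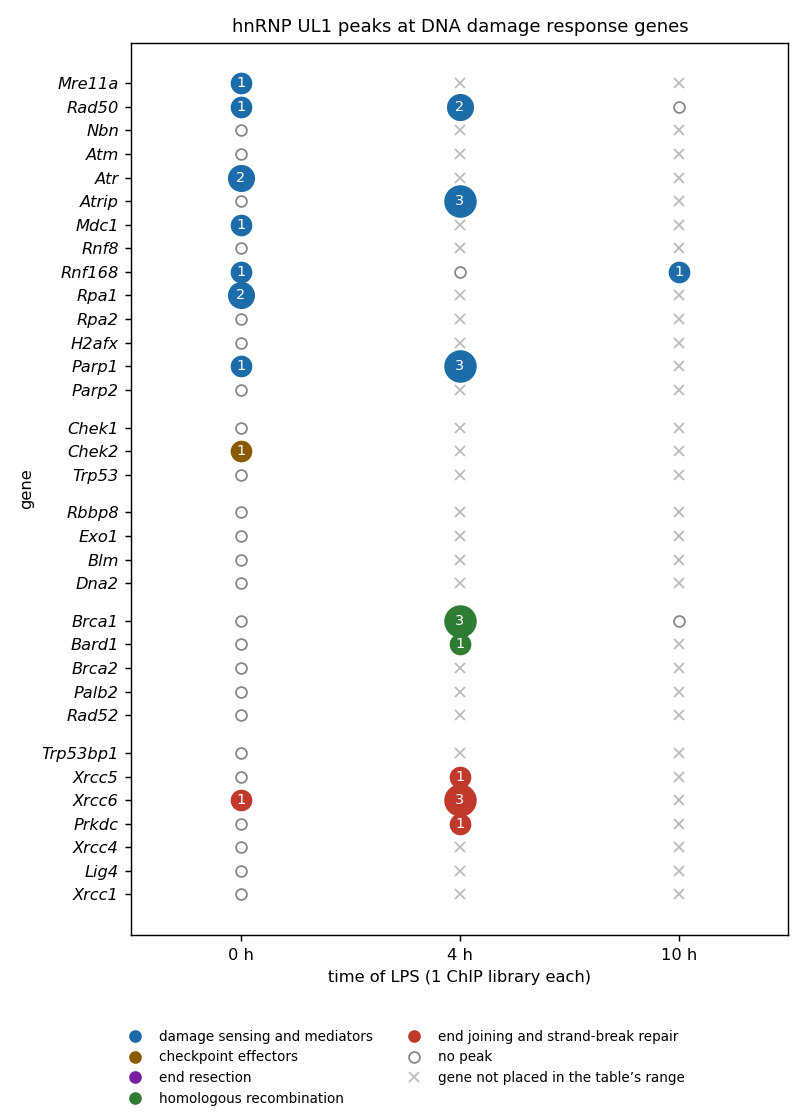
Number of hnRNP UL1 peaks (in the circles) at each of the 33 genes at 0, 4 and 10 h of LPS, 1 library per time. Open circles mark no peak and crosses mark genes that could not be placed in the part of the table that is held. At 0 h the circles with peaks lie mostly among the sensing genes, the largest group, which includes Mre11a and Rad50. The 4 genes counted under resection have none, against 21.0% of all protein-coding genes with a 0 h peak.

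Peak frequency rises with gene length, and the members are long, with a median of 34.3 kb against 17.2 kb for all protein-coding genes. Among genes under 20 kb 12.9% of all genes and 1 of 8 members had a 0 h peak. Between 20 and 60 kb the numbers were 26.9% of all genes and 7 of 15 members. Over 60 kb they were 35.8% of all genes and 1 of 10 members, the 1 being Atr. The long genes without a 0 h peak include Xrcc4 (241 kb), Prkdc (205 kb), Rbbp8 (110 kb), Trp53bp1 (102 kb) and Atm (99.7 kb).

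Where members held peaks before LPS, these lay mostly at gene starts, of the member or of a neighbouring gene. The authors' annotation puts 9 of these 11 points no more than 1 kb from a start of any gene (81.8%, interval 48.2 to 97.7%). Of all 6891 peaks counted at any protein-coding gene in the same way, 31.8% were so annotated. Among the 9, points of Rad50, Atr, Rnf168 and Xrcc6 are listed under the member itself. The others are listed under Ankrd49 (at Mre11a), Smyd4 (at Rpa1), Hscb (at Chek2) and, past the member's end, Xrn1 (at Atr) and Nrm (at Mdc1). Distances to the members' own starts were taken from the RefSeq promoter table (GRCm38.p6), which matched 27 of the 33 genes. Of these 27, 6 had a 0 h peak within 1 kb of their start (22.2%, interval 8.62 to 42.3%), namely Mre11a, Atr, Rnf168, Rpa1, Chek2 and Xrcc6. Over all genes of that table the share was 8.46%, just below the lower end of that interval. Rad50, which has no entry there, held its 0 h peak 448 bp into the gene by the authors' distance.

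**Figure D2:**
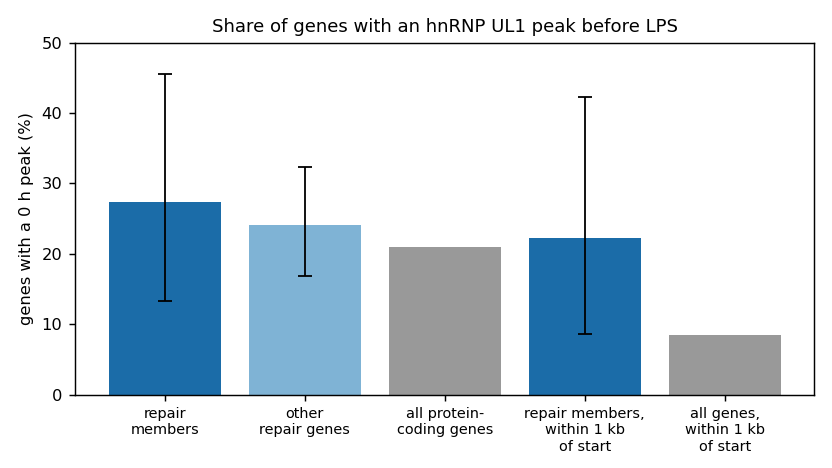
Percent of genes with a 0 h peak, with exact 95% intervals for the gene lists (bars without intervals cover all genes). The left bars count the gene and 5 kb to both sides or a naming row, at 27.3% for the members against 21.0% for all genes. The right bars count points within 1 kb of the start, at 22.2% against 8.46%.

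Several of these starts are shared with a gene on the opposite strand. An opposite-strand start of another protein-coding gene lay within 1 kb of the start in 11 of the 27 members, and 4 of these 11 had a 0 h start peak (Mre11a, Atr, Rpa1 and Xrcc6). Among the other 16 members 2 had one. Over all genes, 1681 of 17492 had such a neighbour, a smaller share than among the members. Of the genes with such a neighbour 17.7% had a 0 h start peak, and of those without 7.47%. The part of shared starts in the members' share with a start peak was not tested. A point at such a start cannot be assigned to either gene. Of the 11 member peaks at 0 h, 6 are listed under another gene or an unnamed one. Among the 6, the Mre11a point under Ankrd49 and the Rpa1 point under Smyd4 lie at such a start. The others lie past the ends of Atr and Mdc1, in an intron of Rpa1, and at Chek2, which has no counted neighbour. Atm (beside Npat), Trp53 (Wrap53), Brca1 (Nbr1), Palb2 (Dctn5), Xrcc4 (Tmem167), Lig4 (Abhd13) and Xrcc1 (Pinlyp) have such neighbours and no 0 h start peak.

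The promoters of the 6 members with a peak at any time within 300 bp of the start show the sequence beside which the points lie. Each line gives, from RefSeq on GRCm38.p6, the 250 bases that end at the base before the start, read toward the gene. Capitals mark matches, on either strand, to the CCAAT box (CCAAT), the GC box (GGGCGG), the ETS core (CCGGAAG) or an E2F site (TTTCCCGC). The windows are chr9:14784404-14784653 (Mre11a, plus strand), chr9:95857347-95857596 (Atr, plus), chr16:32277211-32277460 (Rnf168, plus), chr15:82016119-82016368 (Xrcc6, plus), chr11:101551956-101552205 (Brca1, minus) and chr1:71102973-71103222 (Bard1, minus).
Mre11a: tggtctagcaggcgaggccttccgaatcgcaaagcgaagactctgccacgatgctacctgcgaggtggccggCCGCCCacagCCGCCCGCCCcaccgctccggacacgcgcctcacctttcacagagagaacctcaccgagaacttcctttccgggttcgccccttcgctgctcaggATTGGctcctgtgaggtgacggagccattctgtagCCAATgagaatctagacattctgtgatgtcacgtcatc
Atr: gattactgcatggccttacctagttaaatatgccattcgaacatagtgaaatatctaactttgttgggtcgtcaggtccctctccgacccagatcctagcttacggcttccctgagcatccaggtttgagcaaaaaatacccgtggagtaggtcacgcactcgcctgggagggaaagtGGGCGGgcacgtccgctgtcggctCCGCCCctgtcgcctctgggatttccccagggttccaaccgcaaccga
Rnf168: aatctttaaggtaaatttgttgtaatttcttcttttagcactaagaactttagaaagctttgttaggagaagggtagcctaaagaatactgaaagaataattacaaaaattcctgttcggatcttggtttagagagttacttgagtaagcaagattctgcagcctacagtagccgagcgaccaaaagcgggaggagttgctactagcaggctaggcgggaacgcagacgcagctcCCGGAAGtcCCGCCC
Xrcc6: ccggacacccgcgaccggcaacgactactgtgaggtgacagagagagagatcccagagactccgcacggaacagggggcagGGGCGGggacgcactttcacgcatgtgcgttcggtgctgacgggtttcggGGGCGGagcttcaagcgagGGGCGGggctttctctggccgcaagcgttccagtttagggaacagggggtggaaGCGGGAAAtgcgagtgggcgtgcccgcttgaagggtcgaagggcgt
Brca1: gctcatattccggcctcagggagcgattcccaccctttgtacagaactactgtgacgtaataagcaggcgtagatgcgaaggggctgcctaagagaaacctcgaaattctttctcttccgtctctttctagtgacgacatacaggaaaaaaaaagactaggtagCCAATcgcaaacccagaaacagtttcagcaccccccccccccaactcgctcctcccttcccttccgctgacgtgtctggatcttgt
Bard1: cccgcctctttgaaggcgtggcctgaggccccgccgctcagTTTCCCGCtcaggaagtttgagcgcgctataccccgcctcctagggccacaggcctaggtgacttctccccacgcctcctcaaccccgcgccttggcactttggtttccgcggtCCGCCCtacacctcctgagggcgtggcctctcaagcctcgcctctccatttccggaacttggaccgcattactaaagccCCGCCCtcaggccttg

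The Mre11a window holds 2 CCAAT boxes and 3 GC boxes, and that of Xrcc6 3 GC boxes and 1 E2F site. Atr has 2 GC boxes, Rnf168 1 GC box and 1 ETS core, Brca1 1 CCAAT box, and Bard1 2 GC boxes and 1 E2F site. Over the 28 promoter windows of the 27 matched members (Lig4 has 2), 13 held a CCAAT box, 16 a GC box, 6 the ETS core and 5 the E2F site. Of 21263 windows of all protein-coding genes 35.4%, 42.6%, 8.98% and 1.19% did. Also searched were a second E2F form (TTTGGCGC, 0 members and 0.508% of all), the NRF1 core (GCATGCGC, 5 members and 2.93%), the TATA box (TATAAA, 2 members and 11.6%) and an NF-kB form (GGGANTTTC, 0 members and 0.917%). The E2F site stood in 3 of the 8 windows of members with a start peak at any time (Chek2, Xrcc6 and Bard1) and in 2 of the 20 others (Mdc1 and Brca2). Brca1 and Bard1 are among the 8 only through 4 h points. Most of the 20 others, such as Mdc1 and Brca2, belong to members that no row names. The 4 h and 10 h peaks of such members were not determined, so the 20 are not known to lack a start peak at those times. In the same split the GC box stood in 6 of 8 and 10 of 20 windows, the CCAAT box in 4 and 9, the ETS core in 1 and 5, the NRF1 core in 0 and 5, and the TATA box in 0 and 2. Median GC content was 58.0% in those 8 windows, 59.0% in the 20 others and 55.6% over all genes. The median number of CG dinucleotides was 18 in the members' windows and 10 over all genes, and its part in the share of members with a start peak was not tested. These are matches of letters and not sites of binding.

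Of the complex that first holds a broken end, Mre11a and Rad50 carried peaks and Nbn did not. Mre11a, the nuclease gene (chromosome 9, 14784654 to 14837125), had 1 point at 0 h, at position 14784861, which is 207 bp past its start and beyond the last printed base. The authors list this point under Ankrd49, at a distance of -5 bp from a start of that gene. By the promoter table this divergent neighbour has its start 81 bp upstream of that of Mre11a. No row names Mre11a, so its Ensembl ID is unknown here and its 4 h and 10 h values were not determined.

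Rad50 encodes the ATPase that tethers the ends (ENSMUSG00000020380, chromosome 11, 53649519 to 53707319, minus strand). Its peaks numbered 1 before LPS, 2 after 4 h and 0 after 10 h. The 0 h point and 1 of the 4 h points stand at the same coordinate, 53706846. This is the only 1 of the 2225 points of 0 h in the longer ID range whose coordinate recurs at 4 h, whereas 18.0% lie within 500 bp of a 4 h point. The other 4 h point, at 53707437, lies 118 bp upstream of the gene. For Nbn the nearest 0 h point was 131336 bp away.

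The kinases that signal from breaks and from single-stranded DNA differed at 0 h. Atr (ENSMUSG00000032409, chromosome 9, 95857597 to 95953217) had 2 points. The first, at 95857693, lies 96 bp past its start and inside 1700065D16Rik, a gene on the opposite strand that overlaps Atr by 286 bp. The second, at 95954871, lies 1654 bp past the end of Atr, and the authors place it 9 bp past a start of Xrn1, which encodes a cytoplasmic RNA exonuclease. Atm, in contrast, was the member farthest from any 0 h peak, with the nearest point 964557 bp away. Atrip encodes the partner through which ATR binds RPA-coated DNA. It had 0 peaks at 0 h and 3 at 4 h, of which 1 lies in the gene (109060706, listed under Atrip) and 2 lie 2640 and 4063 bp past its end and are listed under Shisa5. Between Atrip and Shisa5 sits Trex1, the gene of a cytosolic DNA exonuclease, whose edge is 24 bp from that of Atrip.

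RPA coats single-stranded DNA after resection. Rpa1, the gene of its large subunit (chromosome 11, 75300259 to 75348454), had 2 points at 0 h. At 75348789 the first lies 406 bp upstream of the Rpa1 start, within the divergent gene Smyd4, under which it is listed. The second, at 75323750, lies within the gene and is annotated as intronic. The ID of Smyd4 (18809) is covered by all 3 tables, and the rows of 4 h and 10 h hold no point in the Rpa1 region. The second point is listed under an unnamed gene (ENSMUSG00000106179) whose ID the 4 h and 10 h tables do not reach. No row names Rpa1, so its own ID is unknown here. Whether either point persists after LPS was therefore not determined for rows under those IDs. Rpa2 had no peak.

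Among genes that mark or read damaged chromatin, Rnf168 and Mdc1 held peaks. Rnf168 encodes the ubiquitin ligase that modifies histone H2A at breaks (ENSMUSG00000014074, chromosome 16, 32277461 to 32301442). Its peaks numbered 1 before LPS, 0 after 4 h and 1 after 10 h. The 0 h point lies 155 bp and the 10 h point 189 bp past the start, 34 bp apart. Of the 1312 points of 0 h in the common ID range 7.39% lie within 500 bp of a 10 h point. The Mdc1 peak at 0 h (35861404) lies 1734 bp past the end of that adaptor gene, and the authors place it 66 bp past a start of Nrm, a nuclear membrane protein gene. The upstream ligase gene Rnf8 and H2afx, the gene of the histone variant that ATM phosphorylates, had none, with the nearest 0 h points 58129 and 75846 bp away.

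Parp1 encodes the main poly(ADP-ribose) polymerase that responds to strand breaks (ENSMUSG00000026496, chromosome 1, 180568891 to 180600999). At 0 h it was named by 1 row, for a point 17557 bp upstream. That point enters the count only through its name, and without Parp1 there are 10 peaks at 0 h. At 4 h Parp1 was named by 3 rows, for points 1122 bp past the start, 5599 bp upstream and 19038 bp past the end of the gene. Parp2 had no peak, and the nearest 0 h point was 17194 bp away.

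Of the checkpoint effectors only Chek2 held a 0 h peak. Its point (chromosome 5, 110839152) lies 831 bp upstream of the Chek2 start and in Hscb, an iron-sulfur cluster chaperone gene on the opposite strand whose edge lies 7 bp from Chek2 and which the row names. Hscb has no start in the promoter table within 1 kb, so Chek2 is not among the 11 members with a counted neighbour. The ATR-dependent kinase gene Chek1 lay 510357 bp from the nearest 0 h point, and Trp53, the p53 gene, lay 22746 bp away.

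**Figure D3:**
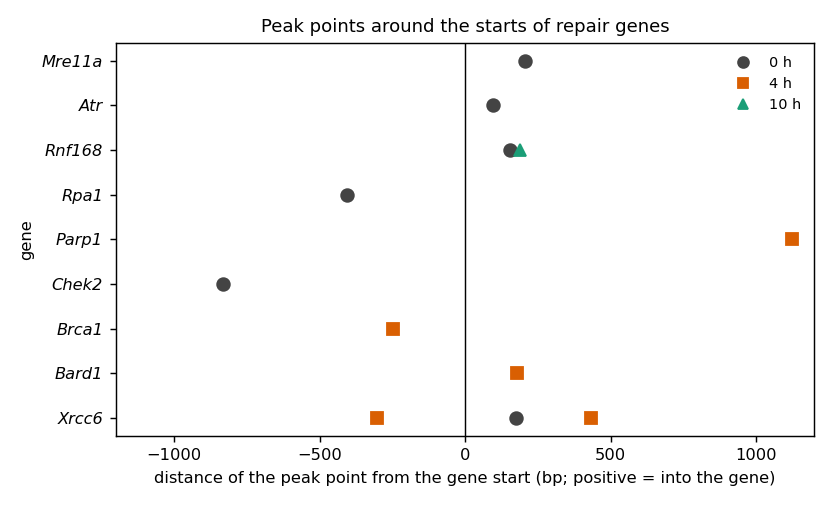
Distance of each peak point from the member's own RefSeq start in bp, for points within 1200 bp, with positive values into the gene. Circles are 0 h, squares 4 h and the triangle 10 h. The Mre11a, Atr, Rnf168 and Xrcc6 points of 0 h lie 96 to 207 bp into the gene, and those of Rpa1 and Chek2 lie upstream.

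None of the 4 genes counted under resection held a peak in any table. At 0 h 21.0% of all protein-coding genes held one, so none among 4 genes is not far from that share. The nearest 0 h point was 49496 bp from Dna2, 159204 bp from Rbbp8 (the CtIP gene), 163631 bp from Blm and 866542 bp from Exo1. No row names these genes, so whether the 4 h and 10 h tables reach their IDs was not determined.

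Of the recombination genes Brca1 and Bard1 could be compared between times, and both held peaks at 4 h and none at 0 h. Both entered the comparison because a 4 h row names them, as did Atrip, Xrcc5 and Prkdc, so a 4 h peak at these genes had to follow. Brca1, whose product directs ends toward recombination (ENSMUSG00000017146, chromosome 11, 101488761 to 101551955, minus strand), had 0 peaks before LPS, 3 after 4 h and 0 after 10 h. Of the 3, 2 are intronic (101502615 and 101511216). The third, at 101552204, lies 249 bp upstream of the start, within the first bases of the printed Brca1 window, and is listed under the divergent gene Nbr1, an autophagy receptor. Bard1, the gene of the BRCA1 partner (ENSMUSG00000026196), had 0 peaks at 0 h and 1 at 4 h, 178 bp past its start. Before LPS the nearest points were 24995 bp from Brca1 and 615191 bp from Bard1. Brca2, Palb2 and Rad52 had no peak, with 0 h points no nearer than 115751, 11123 and 120451 bp. Palb2 was the first gene outside the 5 kb limit, and Mdc1, at 1734 bp, the last inside it.

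Of the 7 genes of end joining or other strand-break repair, 1 held a 0 h peak, against 21.0% of all protein-coding genes. Xrcc5 and Prkdc held peaks at 4 h only and were compared because 4 h rows name them. Over all protein-coding genes placed in the longer range 90.6% had a 4 h peak. Xrcc6, the Ku70 gene (ENSMUSG00000022471, chromosome 15, 81987833 to 82040085), had 1 peak at 0 h and 3 at 4 h. This span overlaps Desi1, a gene on the opposite strand, by 23736 bp, and the Xrcc6 start in the promoter table lies inside the span. The 0 h point (82016544) lies 175 bp past that start. The 4 h points lie 432 and 3055 bp past it and 301 bp upstream, the last listed under Desi1. The first and last of these stand 257 and 476 bp from the 0 h point. Xrcc5, the Ku80 gene (ENSMUSG00000026187), had 0 peaks at 0 h and 1 at 4 h, which is intronic and 58935 bp from the start. Prkdc, the gene of the DNA-PK catalytic subunit (ENSMUSG00000022672), had 0 and 1, with the 4 h point 175 bp upstream of a start by the authors' distance. The replicative helicase gene Mcm4 lies 44 bp from Prkdc. Trp53bp1, Xrcc4, Lig4 and Xrcc1 had no peak, and the nearest 0 h points were 54564, 837829, 572500 and 69658 bp away.

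**Figure D4:**
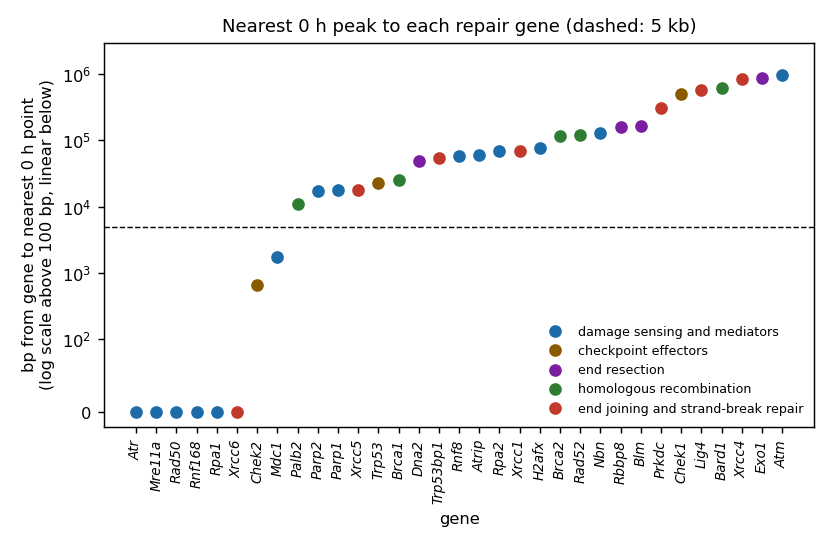
Distance in bp from each gene to the nearest 0 h point (0 where the point lies in the gene, logarithmic above 100 bp), coloured by step. A gap separates Mdc1 at 1734 bp from Palb2 at 11123 bp, across the dashed line at 5 kb.

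Distance to the nearest 0 h peak spanned a wide range in the group. The median distance to the nearest point was 58.1 kb for members and 89.8 kb for all protein-coding genes. Over 500 kb away were 6 of the 33 members (Atm, Exo1, Xrcc4, Bard1, Lig4 and Chek1) and 20.1% of all genes.

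The comparison of 0 h with 4 h asked whether the members gained peaks beyond the rise in the whole table. In the longer range the number of member peaks went from 5 to 17, which is 3.4 times as many, while that of all peaks went from 2225 to 9045, or 4.07 times. The 5 are those of Rad50, Rnf168, Parp1 and Xrcc6 and the Rpa1 peak listed under Smyd4. Members thus held 2.25 per 1000 peaks (interval 0.73 to 5.24) before LPS and 1.88 per 1000 (1.1 to 3.01) at 4 h. The ratio of these shares was 0.836, with an interval conditional on the sum of both counts from 0.296 to 2.9, which includes 1. Of the 9 members that a row places in this range, 4 had a 0 h peak and 8 a 4 h peak. Over all protein-coding genes placed in it the same way 39.8% and 90.6% did, so both counts are near the background. These genes are themselves those that some row names, which raises all these shares. The authors' annotation puts 10 of the 17 member peaks of 4 h within 1 kb of a start, of the member or of a neighbouring gene (58.8%, interval 32.9 to 81.6%). Of the 8948 peaks at any protein-coding gene 19.96% were so annotated.

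In the common range, where all times can be set side by side, member peaks numbered 3 before LPS, 5 after 4 h and 1 after 10 h. The 3 members placed there are Rad50, Rnf168 and Brca1, of which 2 had a peak at 0 h, 2 at 4 h and 1 at 10 h. Over all genes placed in that range 39.5%, 88.7% and 34.2% had one. Per 1000 peaks the members held 2.29 (0.472 to 6.67), 0.944 (0.307 to 2.2) and 0.868 (0.022 to 4.83), intervals that overlap.

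Other genes of DNA repair were read from 10 further lists with 129 genes. Of these 31 had a 0 h peak (24.03%, interval 16.9 to 32.3%), again with the background of 21.0% inside the interval and a median of 0 peaks. Of the further recombination genes Rad51b held 4 peaks, Rmi2, a subunit gene of the BLM dissolvasome, 3, and Rad51d 1. Further end-joining genes had 2 of 11 (Nhej1, the XLF gene, and Shld1, 1 peak each). Fanconi anaemia genes, which act on interstrand crosslinks, had 2 of 14 (Ercc4 with 2 peaks, Fancd2 with 1).

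Excision repair genes held single peaks. For nucleotide excision repair 4 of 14 genes had 1 each (Ddb2, Ercc3, Ercc6 and Xpa), and for base excision repair 3 of 17 did (Apex1, Lig3 and Ung). Of the mismatch repair genes Msh3 and Pms1 held 1 each, and of 7 translesion synthesis genes 2 held peaks (Rev1 with 3, Polh with 1). Clamp and checkpoint genes had 3 of 14 (Cdc25a, Hus1 and Rad9b), p53 pathway genes 5 of 16 (Gadd45g with 2, Ccng1, Gadd45a and Mdm4 with 1), and genes of damage-site chromatin 2 of 12. Of the last, Babam2, a subunit gene of the BRCA1-A complex that spans 387 kb, held 7 and the remodeller gene Ino80 1.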

How the data were processed

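The tools in the submitters' processing notes are MACS2 2.1.0, BWA 0.7.12 and CASAVA 1.8, with the builds GRCm38 and mm10. Settings, thresholds and the use of the input are not given in the sources used here. The authors deposited 1 row per peak, which holds, per the file headers, a point, its annotation, the nearest gene with Ensembl ID and the distance to that gene's start. The incomplete last row of 4 h was left out. Gene spans come from the RefSeq table of GRCm38.p6, in which all 33 members were found (H2afx as H2ax). That table pairs no Ensembl IDs, so 23 members named by no row could not be placed in an ID range. Starts come from the RefSeq promoter table for 27 members, and motifs were sought in the 250 bases before them. Members, lists and motifs were chosen with earlier results of these data known.

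Every member is named, and of other repair genes up to 4 per list, by number of 0 h peaks and then by name. Results of some single genes of these lists are not reported here. Marker lists covered macrophages, T and B cells and fibroblasts. Counting used Python 3.11.15, pandas 2.3.3 and scipy 1.17.1, and was tested on simulated data with points planted at 200 genes. Alternatives were the gene body alone, naming rows alone, 10 kb to both sides, other distances from the start, and neighbouring peaks counted as 1.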

Additional observations from a re-analysis of the deposited data

How the results depend on the processing

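Counting in the gene body alone left 6 members with a 0 h peak, 6 member peaks and 19 other repair genes with a peak at 0 h. In the longer ID range it left 3 member peaks at 0 h and 11 at 4 h, and in the common range 3 at 4 h. Counting only rows that name the gene as nearest left 5 members and 5 member peaks at 0 h (Rad50, Atr, Rnf168, Parp1 and Xrcc6), since the other peaks are listed under neighbouring genes. The remaining 27 values under alternatives, which include the 6 members by gene body, moved by at most 1.5 times, or, for the ratio of shares of 4 h over 0 h, stayed inside its interval, at 0.76 to 0.902. Leaving out Parp1 was chosen after seeing the data. No paired analysis was possible because each group holds 1 sample. Leaving out a replicate was not possible for the same reason. Depth is unknown, so a gene without a peak may have one below the threshold of calling, and 4 h and 10 h values of members that no row names were not determined.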

Other observations

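At the other repair genes the number of peaks in the longer ID range went from 19 before LPS to 94 after 4 h, which is 4.95 times as many, against 4.07 times for all peaks. No interval was computed for the ratio at the other repair genes. The genes named next were chosen after their values were seen. Over all protein-coding genes placed in the longer range 39.8% had a 0 h peak and 90.6% a 4 h peak, so peaks at 4 h only are frequent there. Genes with several 4 h peaks and none at 0 h in that range include Fancc with 6 and Fancl with 5, both of the Fanconi anaemia core complex, and Dclre1c with 5, the gene of the Artemis nuclease that opens hairpin ends. Of the p53 pathway, Mdm2, the gene of the ubiquitin ligase that degrades p53, and Bbc3, the gene of the cell-death protein PUMA, held 5 each at 4 h and 0 at 0 h. At Rev1 the order was the opposite, with 3 peaks at 0 h and 0 at 4 h. Rev3l, which encodes the catalytic subunit of the same translesion pathway, held 0 before LPS, 2 after 4 h and 3 after 10 h. A gene enters that range when some row names it, so many of these genes are compared because of their 4 h peaks. These differences between single libraries were not tested.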
